A study of Mus musculus with 4 samples.

Results

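The oncofetal genes followed here in hypoxic renal tubule cells were *Hmga1*, *Hmga2*, *Igf2bp1*, *Igf2bp2*, *Igf2bp3* and *Lin28b*. They are 6 of the 22063 genes listed in the deposited count table and were chosen by symbol, with their levels and their change in this comparison already known, so their own values below are a description and carry no test. RNA-sequencing was made from TKPTS cells, a mouse renal proximal tubular cell line that the sample labels call TKPT. All 4 libraries came from cells kept for 24 h in 1% O2 and then for 12 h in normal oxygen. Before that, the cells had been transfected with a control siRNA (si-NC, libraries numbered 2 and 3, genotype label WT) or with an siRNA to *Itgb6* (si-*Itgb6*, libraries numbered 1 and 3, genotype label *Itgb6* knockdown). The comparison asked how gene expression in hypoxic tubule cells differed when the integrin subunit was targeted. All cells were grown in medium with serum and insulin. No library of cells in normal oxygen alone was analysed here, so no value compares hypoxic with untreated cells. Nothing in the labels says that the libraries came from separate cultures, and the spread between them may be technical.

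The HMGA proteins are small chromatin proteins that hold the minor groove of AT-rich DNA with their AT hooks and bend it, which opens or shapes enhancers and promoters. The IGF2BP proteins are cytoplasmic RNA-binding proteins that coat messenger RNAs, many of them carrying the m6A mark, and prolong their life or steer their translation. LIN28B binds the precursors of the let-7 microRNAs and blocks their maturation, while mature let-7 in turn represses the transcripts of *Hmga2*, *Lin28b* and the *Igf2bp* genes. These genes are high in the embryo, low in most adult tissues and high again in many tumours, and injured proximal tubule cells are known to take up part of the embryonic expression programme.

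Outside the expression values, the 6 genes share letters that match let-7, so the sequences of both partners are shown first. These letters were searched for because the genes are known as let-7 targets. In RefSeq, 9 mature mouse microRNAs of the let-7 and miR-98 family carry the same seed, bases 2 to 8, which is in capitals in the lines below. The lines show that the seed stays the same while the rest of the molecule varies.
mmu-let-7a-5p: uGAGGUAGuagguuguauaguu
mmu-let-7i-5p: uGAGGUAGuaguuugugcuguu
mmu-miR-98-5p: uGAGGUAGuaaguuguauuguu

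The match to that seed in a transcript is CTACCTC, and it was found at least once in the longest annotated 3' UTR of each of the 6 genes (GENCODE vM21, GRCm38). The first match of each gene is shown, 5' to 3' on the strand of the gene, with the match in capitals.
*Hmga1* (chr17:27563277-27563299, plus strand): tcctctgttcacaaaCTACCTCt
*Hmga2* (chr10:120364224-120364246, minus strand): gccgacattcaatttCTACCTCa
*Igf2bp1* (chr11:95961778-95961800, minus strand): gctgtgcgaagtaaaCTACCTCa
*Igf2bp2* (chr16:22059473-22059495, minus strand): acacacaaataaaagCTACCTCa
*Igf2bp3* (chr6:49086787-49086809, minus strand): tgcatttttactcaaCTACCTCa
*Lin28b* (chr10:45381022-45381044, minus strand): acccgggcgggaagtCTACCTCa

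*Hmga2*, *Igf2bp1* and *Lin28b* held 4 matches each, and *Hmga1*, *Igf2bp2* and *Igf2bp3* held 1 each. The first match of *Hmga2* lay at base 58 of a 3' UTR of 3014 bases, and that of *Lin28b* at base 36 of a 3' UTR of 4445 bases. The matches of *Igf2bp1* lay farther out, from base 1715 to base 5353 of 6337. Over all matches, an A followed in 1 of the 4 matches of *Hmga2*, 3 of the 4 of *Igf2bp1*, 1 of the 4 of *Lin28b* and in the single matches of *Igf2bp2* and *Igf2bp3*, but not in that of *Hmga1*. Among 20791 other genes with a 3' UTR, 9.07% held the letters at least once and 0.0433% held them 4 or more times. Length matters for such counts. Of 3' UTRs within 20% of the same length, 15.5% held a match for the length of *Hmga2*, 33.6% for *Igf2bp1* and 24.2% for *Lin28b*, and 0.0892%, 0.178% and 0.158% held as many as 4. For the lengths of *Hmga1*, *Igf2bp2* and *Igf2bp3* the shares with a match were 8.12%, 11.9% and 13.2%. A match is a description of the sequence and not a measured binding site. The map of matches along the 3' UTRs shows the 3 genes with 4 matches and the 3 genes with 1.

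**Figure D1:**
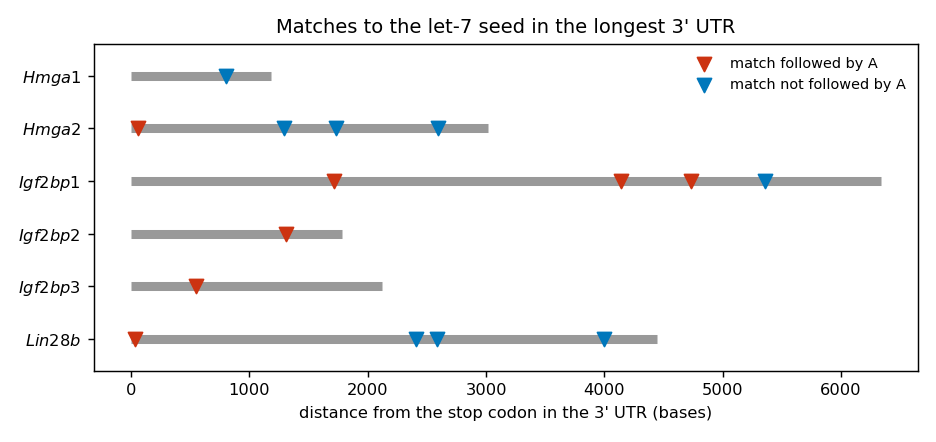
Matches to the let-7 seed in the longest annotated 3' UTR of each gene. Grey bars give the length of the 3' UTR in bases from the stop codon, and triangles mark the matches, in red where an A follows and in blue where it does not. *Hmga2*, *Igf2bp1* and *Lin28b* have 4 triangles and the other genes 1, and the first of *Hmga2* and of *Lin28b* lie at bases 58 and 36.

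The 4 libraries held 15435087 to 17220285 estimated counts, and 11727 genes passed the filter on low counts. *Itgb6* had 285 and 284 counts in the si-NC libraries and 279 and 260 in the libraries labelled si-*Itgb6*, a log2 fold change of -0.01 ± 0.13 (SE) (edgeR quasi-likelihood test, adjusted p = 0.991). The RNA of the siRNA target was therefore nearly the same under both labels. The study reports less integrin αvβ6 protein with this siRNA in hypoxic TKPTS cells, by western blot and not in these libraries. Its methods state that silencing was checked by qPCR too, which measures RNA. The counts here do not show such a loss of RNA, and the reason was not tested. Libraries are called by their label throughout, and each direction below is one between the labels. Of the proximal tubule markers, 7 of 13 were tested and 4 had no count in any library. Among the latter was *Slc34a1*, a phosphate transporter of the brush border. *Pax8*, a renal epithelial transcription factor, had 287 to 357 CPM (counts scaled to library size, with TMM factors). Of the 7 tested, 6 had a log2 fold change above 0 (median 0.09), and 1 was called, described below. *Havcr1* was not called but had 0.19 with an adjusted p of 0.0358 in edgeR. All 6 epithelial markers were tested, and none was called, although each had a log2 fold change below 0 (median -0.15) and *Krt8*, a keratin of simple epithelia, had -0.20 with an adjusted p of 0.00881 in edgeR. Their part in the values of the members was not tested. Of 6 fibroblast and 6 endothelial markers 1 each was tested, with summed levels of 3.19 to 5.10 and 2.78 to 4.31 CPM. The summed macrophage markers reached 132 to 151 CPM, nearly all of it *Cd68* and *Csf1r*, while *Adgre1* and *Ptprc* had at most 6 counts. In si-*Itgb6* replicate 1, *Col1a1* had 22 counts, *Col3a1* 14 and *Lyz2* 11, against at most 2 in any other library. *Pdgfrb*, another fibroblast marker, was lowest there, at 35 counts. What this library held beyond the others was not tested.

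Levels of different genes were compared per transcript length, on the deposited FPKM values. *Hmga1* stood highest, at 445 to 486 FPKM over the 4 libraries, rank 175 among all genes listed. *Igf2bp2* followed at 74.4 to 81.7 FPKM, and its range did not touch that of *Hmga1*. *Igf2bp1* at 14.2 to 18.3 FPKM and *Hmga2* at 8.66 to 14.7 FPKM came next, and their ranges overlapped, so their order was not resolved. *Igf2bp3* lay below both, at 2.27 to 3.19 FPKM. *Lin28b* had 0 counts in all 4 libraries, and a count of 0 allows at most 0.174 to 0.194 CPM per library, so expression was not detectable at this depth. Its paralog *Lin28a* also had 0 counts in all 4 libraries. The plot of FPKM by gene shows this order on a log axis.

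**Figure D2:**
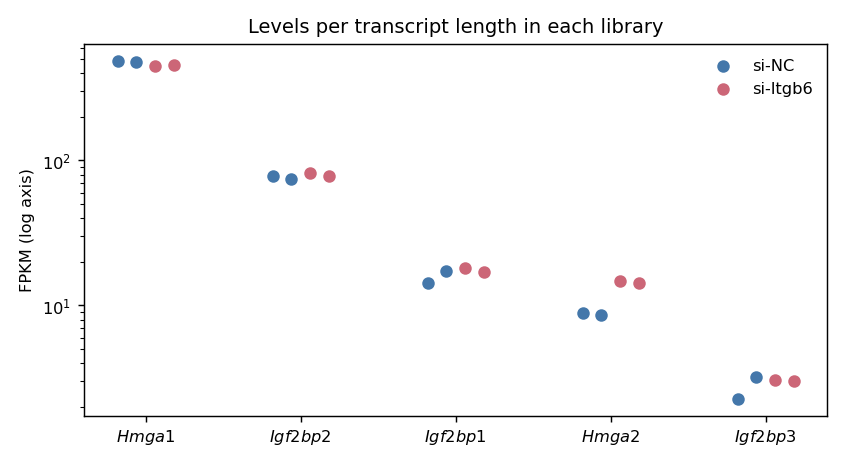
Deposited FPKM of the 5 genes with counts, 1 point per library, on a log axis, with si-NC in blue and si-*Itgb6* in red. *Hmga1* lies at 445 to 486 and *Igf2bp3* at 2.27 to 3.19, and the points of *Igf2bp1* and *Hmga2* overlap. *Lin28b*, with 0 counts, is not drawn.

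Within the *Igf2bp* family, *Igf2bp2* made up 78.4% to 82.6% of the summed FPKM, *Igf2bp1* at most 18.2% and *Igf2bp3* 2.39% to 3.36%. *Igf2bp2* is the family member that many adult tissues keep, whereas *Igf2bp1* and *Igf2bp3* are the more strictly fetal ones. These shares overlapped between the labels. In the HMGA pair the balance differed between them. *Hmga1* exceeded *Hmga2* in FPKM by 55.0 and 55.3 times in the si-NC libraries, and by 30.3 and 32.4 times in the libraries labelled si-*Itgb6*.

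*Hmga2* (ENSMUSG00000056758, chr10:120361275-120476469, minus strand) was the member that differed most. It had 532 and 554 counts in si-NC and 842 and 878 in those labelled si-*Itgb6*. On the CPM scale these were 32.6 and 32.1 against 54.4 and 53.3, so the libraries of a label lay close together and the labels far apart. The means were 32.4 ± 0.386 CPM (SD, n = 2) and 53.9 ± 0.756 CPM (SD, n = 2). The log2 fold change was 0.74 ± 0.09 (SE), a fold of 1.66. It was 0.72 to 0.75 when each library was left out in turn. Among all tested genes, 97.5% had a smaller log2 fold change in size, and 164 genes had a larger positive one. The study names thresholds of a fold above 1.2 with an unadjusted p below 0.05, and a gene past both is called here. Of the 5 tested members only *Hmga2* passed them. Since the members were chosen with this comparison known, that is a description and no test. The same rule called 4.37% of all tested genes higher and 5.2% lower. In bulk RNA, more cells that express a gene and more RNA per cell cannot be told apart. An antisense gene, 1700006J14Rik, overlaps *Hmga2* and shares 1.67% of its 31-base words with it. It was not analysed here, and reads of opposite strands cannot be told apart in these libraries.

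*Hmga1* (ENSMUSG00000046711, chr17:27556497-27563674, plus strand), the abundant member of the pair, had 10855 and 11223 counts in si-NC and 9411 and 10298 in those labelled si-*Itgb6*. Its CPM values were 666 and 650 against 608 and 625, and the log2 fold change was -0.09 ± 0.05 (SE). This difference was small and its sign was not stable. Once the trends with GC content and length had been taken out, it was 0.05. The GC content of its longest transcript was 61.4%, higher than in 98.0% of the tested genes, and over all tested genes the log2 fold change fell with GC content (Spearman's rho of -0.364 across genes, which are not independent replicates). *Hmga1b*, a near-identical copy on chromosome 11, shares 62.1% of the 31-base words of *Hmga1*, so the division of reads between both is uncertain. *Hmga1b* was given 5877 and 6354 counts in si-NC and 5408 and 5487 in those labelled si-*Itgb6*. *Hmga1* took 63.5% to 65.2% of the pair's counts, and the summed counts gave -0.09 ± 0.04 (SE). *AI413582*, which overlaps *Hmga1* on the other strand, had 282 and 289 counts against 213 and 240.

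*Igf2bp1* (ENSMUSG00000013415, chr11:95957163-96005940, minus strand), whose protein is known for binding the *Myc* and *Actb* messengers, had 1933 and 2494 counts in si-NC and 2362 and 2383 in those labelled si-*Itgb6*. The CPM values were 118.5 and 144.4 against 152.6 and 144.7. The si-NC libraries were 131 ± 18.3 CPM (SD, n = 2), and 1 of them lay almost at the level of the lower si-*Itgb6* library. The log2 fold change was 0.18 ± 0.07 (SE), a fold of 1.13, and it was not called. Single libraries moved it by more than 1.5 times, to 0.04 without si-NC replicate 2 and to 0.33 without si-NC replicate 3.

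*Igf2bp2* (ENSMUSG00000033581, chr16:22059009-22163299, minus strand), the most abundant of the family, had 4420 and 4472 counts in si-NC and 4408 and 4522 in those labelled si-*Itgb6*. The CPM values of 271 and 259 against 285 and 275 did not overlap, but the highest si-NC library lay within 4 CPM of the lowest si-*Itgb6* library. The log2 fold change was 0.08 ± 0.05 (SE), and it was 0.05 to 0.11 when each library was left out in turn.

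*Igf2bp3* (ENSMUSG00000029814, chr6:49085223-49214957, minus strand) was the least abundant member with counts, at 160 and 239 estimated counts in si-NC and 204 and 219 in those labelled si-*Itgb6*. The CPM values were 9.81 and 13.8 against 13.2 and 13.3, so the si-NC libraries enclosed the others. The log2 fold change was 0.16 ± 0.16 (SE). It turned to -0.06 without si-NC replicate 2 and rose to 0.44 without si-NC replicate 3, so that a single control library set its sign. *Malsu1*, a mitochondrial ribosome assembly factor on the opposite strand, overlaps *Igf2bp3* and shares 18.4% of its 31-base words, and the counts of *Igf2bp3* were not whole in any of the 4 libraries. *Malsu1* had 28.8 and 34.7 CPM in si-NC and 34.3 and 31.04 CPM in those labelled si-*Itgb6*, with si-NC replicate 2 lowest as for *Igf2bp3*. Reads of both strands cannot be told apart, and the part of *Malsu1* in the values of *Igf2bp3* was not tested.

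In all, 4 of the 5 tested members had groups that did not overlap in CPM, against 49.2% of all tested genes. The 3 *Igf2bp* genes and *Hmga2* had positive log2 fold changes and *Hmga1* a negative one. Since the members were chosen with this comparison known, nothing is read from that count. The plots of CPM by library and of log2 fold changes show both points.

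**Figure D3:**
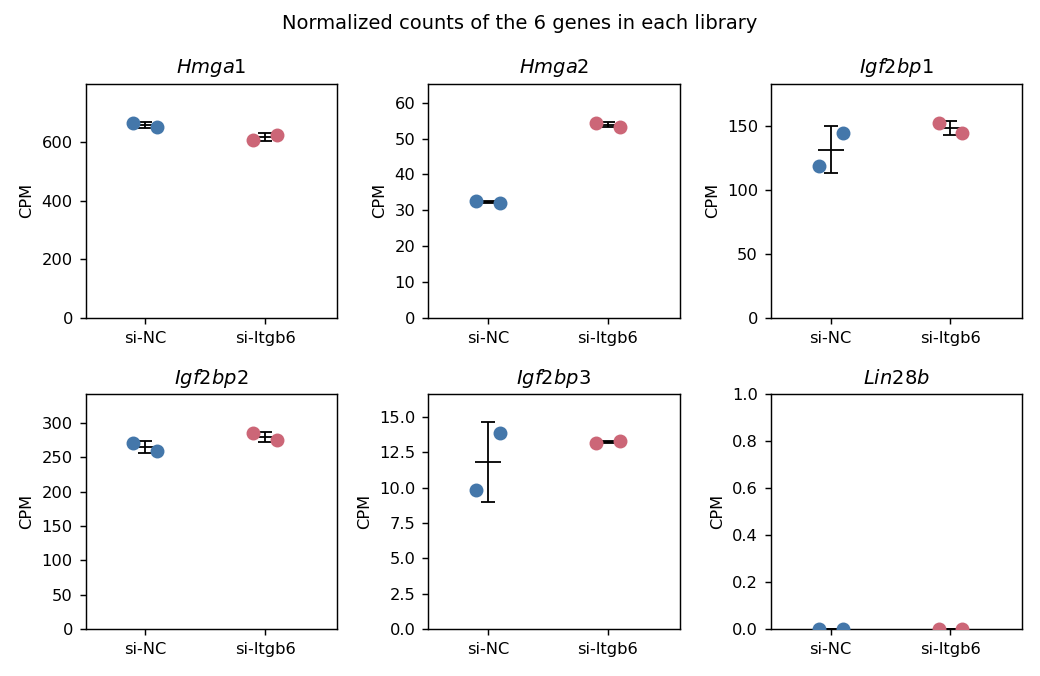
CPM of the 6 genes, with 1 point per library, and the mean ± SD of the 2 libraries of each label as black bars, on linear axes from 0. *Hmga2* stands at 32.6 and 32.1 in si-NC and at 54.4 and 53.3 in those labelled si-*Itgb6*, while the si-NC points of *Igf2bp1* and *Igf2bp3* lie apart from each other and *Lin28b* is at 0.

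**Figure D4:**
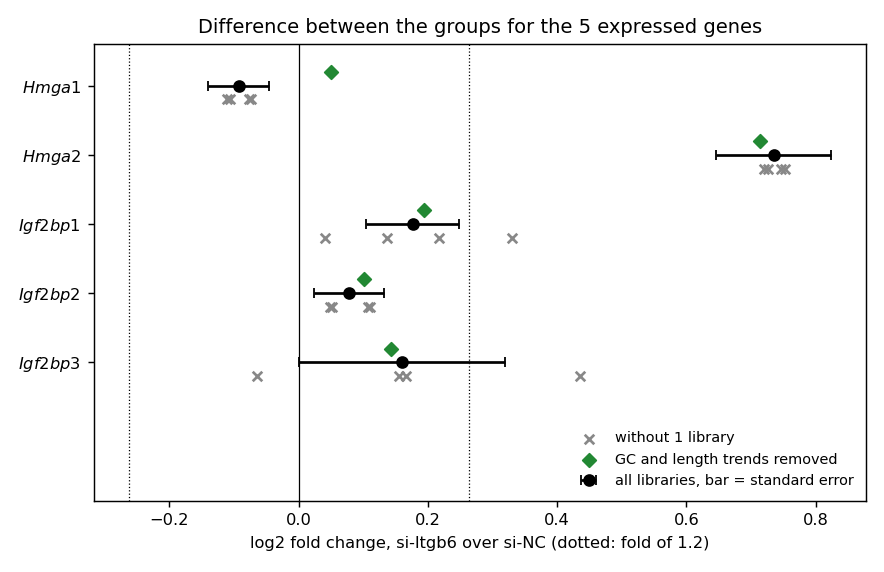
Log2 fold change of si-*Itgb6* over si-NC for the 5 genes with counts. Black points are from all libraries with their standard error, crosses leave out 1 library each, green diamonds have trends on GC content and length removed, and dotted lines mark a fold of 1.2. *Hmga2* stays between 0.71 and 0.75 in this plot, *Hmga1* changes sign with the trends removed and *Igf2bp3* changes sign without 1 library.

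The genes whose pattern over the 4 libraries lay nearest to that of a member were found among tested genes with a mean of at least 10 CPM, by the Euclidean distance of log2 CPM centred on the mean of each gene. For *Hmga2* these were *Gvin2* at a distance of 0.135, with 37.0 and 40.4 CPM against 69.5 and 63.3, and *Rnd3* at 0.142, with 12.3 and 13.4 CPM against 19.96 and 20.8. The distances were smaller for members that differed little, where many genes lie close. They were *Dsn1* (0.00725) and *Ncapg* (0.00993) for *Igf2bp2*, *Kalrn* (0.00733) and *Ankrd13b* (0.00744) for *Hmga1*, *Wrap53* (0.0286) and *Ier5* (0.0379) for *Igf2bp1*, and *Wdr76* (0.0641) and *Mllt6* (0.0652) for *Igf2bp3*. The tested genes next to the members on each chromosome were looked up after the values had been seen, and none of these 12 genes was called. Beside *Hmga2*, *Llph* at 129 kb had a log2 fold change of 0.11 ± 0.08 (SE), and *Msrb3* at 305 kb had 0.17 ± 0.32 (SE).

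Of the genes of the let-7 pathway, 20 were tested, of which 1 was called higher and none lower at the thresholds above, with a median log2 fold change of 0.03 beside 0.00017 over all tested genes. The called gene was *Tut4*, the terminal uridylyltransferase that LIN28A recruits to the let-7 precursor, with 35.2 and 34.0 CPM in si-NC and 42.4 and 44.5 CPM in those labelled si-*Itgb6*. It rose by a log2 fold change of 0.33 ± 0.09 (SE) (edgeR quasi-likelihood test, adjusted p = 0.0332). *Dis3l2*, the exonuclease that removes uridylated let-7 precursors, stood at 33.4 and 36.2 against 29.9 and 30.8 CPM and was not called (log2 fold change -0.20, adjusted p = 0.293). Polyadenylated RNA of this kind holds no mature microRNA, so let-7 itself was not measured.

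Of 26 tested genes known as let-7 targets, the members left out, 3 were called higher and 1 lower, with a median log2 fold change of 0.02. *Nr6a1*, a germ cell nuclear receptor of the embryo, had 9.93 and 11.3 CPM in si-NC and 18.3 and 15.9 CPM in those labelled si-*Itgb6*. The difference was 0.68 ± 0.15 (SE) on the log2 scale (edgeR, adjusted p = 0.00381). *Cdk6*, the G1 cyclin-dependent kinase, rose by 0.33 on the log2 scale (edgeR, adjusted p = 0.01005), and *Cdc25a*, a phosphatase of the cell cycle, differed by 0.27 but with an adjusted p of 0.156 in edgeR. The call of *Cdk6* was lost with GC and length trends removed (0.26) and without si-*Itgb6* replicate 1 (0.21), and that of *Cdc25a* in 5 settings, among them DESeq2 (0.27) and the fits that left out si-NC replicate 2 (0.21) or replicate 1 of si-*Itgb6* (0.199). *Insr*, the insulin receptor, differed by -0.30 (edgeR, adjusted p = 0.101). *Myc* had 13.7 and 11.7 CPM against 15.6 and 13.5 CPM and was not called (log2 fold change 0.20, adjusted p = 0.516).

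The same letters that the members share were then looked up in all other tested genes with a 3' UTR. The 1224 genes with at least 1 match had a median log2 fold change of -0.00072, beside -0.0001 for the 10406 genes without, and 78 of them were called higher and 78 lower, which is 6.37% each beside 4.37% and 5.2% of all tested genes. With GC and length trends removed these shares were 4.90% higher and 4.49% lower, beside 3.59% and 3.6% of all genes in that fit. Among the 150 genes with 2 or more matches, the median was 0.01. Of them 14 were called higher and 7 lower, which is 9.33% and 4.67% beside 4.37% and 5.2% of all tested genes. With GC and length trends removed the shares were 7.33% and 4%, beside 3.59% and 3.6%. In 3' UTRs of 1000 to 7000 bases, the median was 0.0025 for 963 genes with a match and 0.016 for 5396 without. Genes with 2 or more matches were not compared at like length.

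The partners that IGF2BP proteins meet in ribonucleoprotein particles held 16 tested genes, of which none was called higher and 1 lower, with a median log2 fold change of 0.04. The called gene was *Upf1*, the helicase of nonsense-mediated decay, which had 99.6 and 90.1 CPM in si-NC and 77.3 and 72.4 CPM in those labelled si-*Itgb6* (log2 fold change -0.34, standard error 0.07, edgeR adjusted p = 0.00477). Of 18 tested genes that write, erase or read m6A, 1 was called higher and none lower, with a median of 0.07. This was *Mettl16*, a methyltransferase of U6 and of *Mat2a* RNA, with a log2 fold change of 0.34 (edgeR, adjusted p = 0.00522), and its call was lost without si-*Itgb6* replicate 3 (0.24).

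Of 16 tested messengers that IGF2BP proteins are known to bind, 1 was called higher and 2 lower, with a median log2 fold change of -0.02. *Ptgs2*, the inducible cyclooxygenase, had 114 and 127 CPM in si-NC and 162 and 169 CPM in those labelled si-*Itgb6*, and rose by 0.46 ± 0.06 (SE) on the log2 scale (edgeR, adjusted p = 3.2e-05). *Ctnnb1*, which encodes beta-catenin, had 430 and 399 CPM in si-NC and 345 and 337 CPM in those labelled si-*Itgb6*, a log2 fold change of -0.28 (edgeR, adjusted p = 0.000989). *Srf*, the serum response factor, had a log2 fold change of -0.45 (edgeR, adjusted p = 0.0103). The calls of *Upf1*, *Ctnnb1* and *Srf* were lost when trends on GC content and length were removed, with log2 fold changes of -0.21, -0.26 and -0.26, and that of *Ctnnb1* also without si-NC replicate 2 (-0.23). *Igf2*, the messenger that gave the family its name, had at most 4.05 estimated counts in any library and was not tested. *H19*, its neighbour, was not analysed here.

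Of 16 tested genes named as targets of HMGA proteins, 2 were called higher and 3 lower, with a median log2 fold change of -0.09. That median was -0.0056 without si-*Itgb6* replicate 1, -0.041 without si-NC replicate 2, -0.040 with GC and length trends removed and -0.043 with a minimum of 10 counts in every library. *Snai1*, an epithelial-mesenchymal transition factor that HMGA2 is known to activate, had 43 and 25 counts in si-NC and 6 and 9 in those labelled si-*Itgb6*, a log2 fold change of -2.10 ± 0.52 (SE) (edgeR, adjusted p = 0.0150). It was lower in the libraries in which *Hmga2* was higher, and its call was lost without si-NC replicate 2 (-1.61). *Cdkn2b*, a cyclin-dependent kinase inhibitor, differed by 0.31 and *Ercc1*, a DNA repair endonuclease subunit, by -0.27, both with an adjusted p over 0.05 (edgeR, 0.221 and 0.190). *Cdkn2b* was not called when si-NC replicate 2 (0.24) or replicate 1 of si-*Itgb6* (0.24) was left out. *Ercc1* was not called when si-NC replicate 3 (-0.11) or replicate 1 of si-*Itgb6* (-0.21) was left out, nor with GC and length trends removed (-0.19), and DESeq2 called neither gene. *Ptgs2* and *Insr*, described above, belong to this list as well.

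The list of other HMG box and HMGN chromatin proteins held 12 tested genes, of which none was called higher and 1 lower. Its median log2 fold change was 0.0006. Among the 12 was *Hmga1b*, the copy of *Hmga1* described above, which is not an HMG box or HMGN gene. *Hmga1b* had a log2 fold change of -0.09 ± 0.05 (SE) and was not called. All values given for this list, here and below, include *Hmga1b*, and the median without it was not computed. The called gene was *Hmgxb3*, with 50.2 and 52.5 CPM in si-NC and 38.4 and 38.0 CPM in those labelled si-*Itgb6* (log2 fold change -0.43, edgeR adjusted p = 0.00257). *Hmgb1*, the abundant HMG box protein, had 617 and 615 against 635 and 692 CPM and was not called (log2 fold change 0.11, adjusted p = 0.240). Of 11 tested other oncofetal genes 1 was called higher and none lower, with a median of 0.12, whose sign was not stable. It was -0.14 when si-*Itgb6* replicate 3 was left out, -0.0087 when replicate 1 of that label was, and -0.048 with a minimum of 10 counts in every library. The called gene was *Sox11*, a transcription factor of the developing kidney and nervous system, with 15.6 and 19.2 CPM against 25.8 and 20.8 CPM (log2 fold change 0.41, edgeR adjusted p = 0.0661). Its call was lost when si-NC replicate 2 (0.27) or replicate 1 of si-*Itgb6* (0.25) was left out.

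Over the 8 lists together, 125 genes were tested, of which 8 were called higher and 7 lower. These shares of 6.4% and 5.6% stood beside 4.37% and 5.2% of all tested genes. The list medians moved when each library was left out in turn. They ranged from -0.00188 to 0.13 for the let-7 pathway, 0.0098 to 0.053 for let-7 targets, 0.021 to 0.049 for IGF2BP partners, -0.036 to 0.024 for IGF2BP-bound messengers, 0.029 to 0.091 for m6A genes and -0.051 to 0.0045 for HMG box and HMGN proteins. With GC and length trends removed, the medians of let-7 targets, HMG box proteins, IGF2BP partners, IGF2BP-bound messengers and m6A genes were -0.0020, -0.012, 0.0042, -0.041 and 0.022. The plot of log2 fold changes by list shows the called genes among the others. The proximal tubule marker called between the labels was *Aqp1*, the water channel of the proximal tubule, with 23.7 and 27.6 CPM in si-NC and 38.8 and 38.4 CPM in those labelled si-*Itgb6* (log2 fold change 0.59, edgeR adjusted p = 0.000617), and its part in the values of *Hmga2* was not tested.

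**Figure D5:**
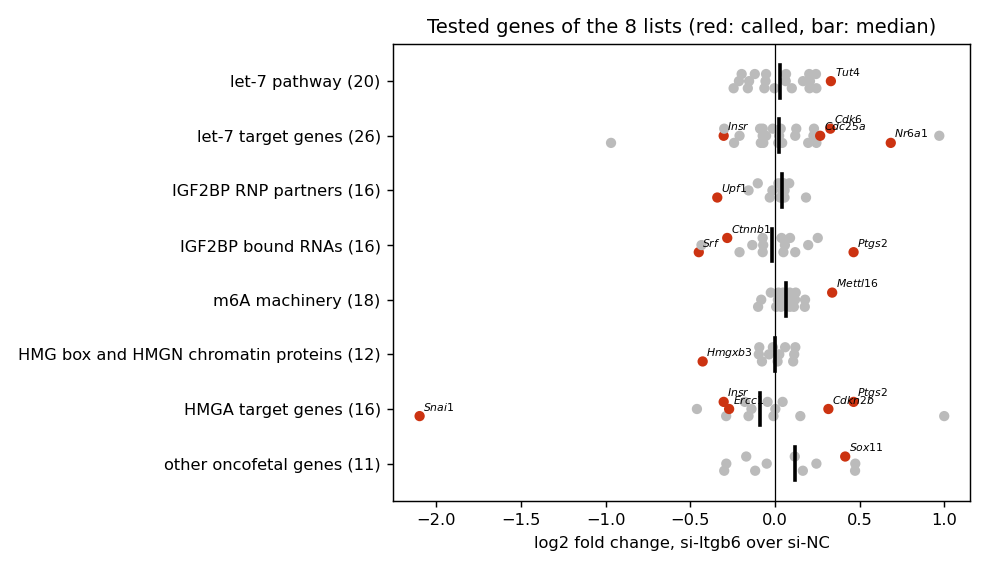
Log2 fold change of si-*Itgb6* over si-NC for the tested genes of the 8 lists, with the number tested in brackets, called genes in red with their names and list medians as black bars. Medians lie between -0.09 and 0.12, and *Snai1* at -2.10 stands farthest from 0.

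In the RefSeq promoter windows (GRCm38.p6, 250 bases before to 50 after the start), found for 5 of the 6 genes, the core of the hypoxia response element, ACGTG or GCGTG on either strand, occurred in *Hmga1*, *Igf2bp2*, *Igf2bp3* and *Lin28b* and not in *Hmga2*. It occurred in 43.8% of 32851 promoters. The *Lin28b* window, chr10:45470152-45470451, lay inside the GENCODE span of the gene, which begins at base 45486395 on the minus strand. Its letters therefore belong to another start. The TEAD core GGAATG, read on both strands, was in none of the 5 and in 14.7% of all promoters. The ratio of observed to expected CpG was above that of 97.8% of promoters for *Igf2bp2*. It was above that of 60.8% for *Hmga2*, which had the lowest ratio of the 5.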

How the data were processed

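RNA of 4 libraries of hypoxic TKPTS cells was sequenced by the authors as polyadenylated, non-stranded paired reads. The authors deposited estimated counts per gene, not normalized, and FPKM values per gene; which aligner, counter, build and annotation were used is not given in the sources used here, and 1447 to 1500 genes of each library had counts that were not whole. The study's methods state that samples were optimized after a cluster analysis. The per-sample files held the same values as the summary table.

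Counts were rounded, filtered with filterByExpr (minimum count 10, minimum total 15), scaled by TMM and compared in edgeR 4.0.16 by its quasi-likelihood test (limma 3.58.1, R 4.3.3). Called means an unadjusted p under 0.05 and a fold over 1.2; adjusted p-values are Benjamini-Hochberg over 11727 genes. Levels between genes were read only on FPKM. The edgeR test was also run on simulated counts, which held no trend with GC content or length. That run therefore says nothing on such trends, which these data hold. Replicates differed by more than sampling noise, with a mean chi-square over genes of 2.91 in si-NC and 3.62 in si-*Itgb6*. A count of 0 allows up to 3 counts, for counting error only. Coordinates and 3' UTRs were from GENCODE vM21 (GRCm38), which held 99.6% of the identifiers and may not be the authors' annotation, and microRNAs and promoters from RefSeq (GRCm38.p6). Shared sequence was counted in words of 31 bases.

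The members and the gene lists were chosen with earlier results of these data known, and no list is independent evidence. Named were the members, *Itgb6*, the called genes of each list (at most the 6 with the largest log2 fold change), *Lin28a*, *Dis3l2*, *Igf2*, *H19*, *Myc* and *Hmgb1*, the 2 genes nearest in pattern to each tested member, and overlapping genes or copies. Marker genes and neighbours named beyond this were chosen after their values were seen. Alternatives were DESeq2 1.42.0, RLE factors, library size only, 2 other filters, removal of GC and length trends (lowess, known for 11709 genes), other thresholds, log2(FPKM + 1) and log2(FPKM + 0.1), and leaving out each library; the sum of *Hmga1* and *Hmga1b* and the restriction of 3' UTR length were chosen later, after seeing the data.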

Additional observations from a re-analysis of the deposited data

How the results depend on the processing

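No paired analysis was possible because the groups share only replicate number 3. With 2 libraries per group the precision is limited, and a fit without 1 library takes the lone sample to vary like the other group. Over all tested genes, 610 were called lower and 512 higher. The study reported fewer genes in each direction at the same thresholds, and the reason for this was not tested. DESeq2 gave 383 and 320, an adjusted p under 0.05 gave 295 and 247, and a fold over 1.5 gave 110 and 125. Without 1 library the counts ranged from 402 to 768 lower and from 338 to 645 higher, with the lowest of both without si-NC replicate 2.

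*Hmga2* had a log2 fold change of 0.71 with GC and length trends removed, 0.66 on log2(FPKM + 1), 0.72 on log2(FPKM + 0.1) and 0.72 to 0.75 without 1 library. *Hmga1* was 0.050 with GC and length trends removed, so its sign was not stable, and -0.11 to -0.07 without 1 library. Without 1 library *Igf2bp1* was 0.041 to 0.33, *Igf2bp2* 0.05 to 0.11 and *Igf2bp3* -0.064 to 0.44. The median of genes with a let-7 match was -0.016 with library size only, 0.0086 with GC and length trends removed, 0.014 for at least 2 matches, 0.011 for at least 3 and -0.0099 to 0.0096 without 1 library. Of 16 called list and marker genes, 8 were called in every other fit with all libraries (*Snai1* was not tested with a minimum of 10 counts in every library) and 8 in every fit without 1 library, and none turned its direction. With GC and length trends removed, 10 were called. The cause of these changes was not tested.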
